A study of Rattus norvegicus with 18 samples.

Results

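The subject is the most abundant transcripts of the rat dorsal root ganglion (DRG) that changed less than 2-fold after nerve injury. In the table of normalised counts at the 50 M read depth, a gene was taken when the mean of its 3 naive libraries was at least 10000 and when its spinal nerve transection (SNT) mean was 0.5 to 2 times the naive mean. Genes that a supplementary list of the study pairs with a symbol were then left out, as far as the part of that list used here goes. That list covers the genes that the study tested for a change in intronic against exonic reads. The study had excluded overlapping genes and genes with few intronic reads from that test. The members were thus chosen by their naive level, by their ratio of SNT to naive means and by having no symbol in that list. The last choice is therefore not a matter of naming alone. This gave 91 members out of 26172 genes. Because of this choice, the members' fold changes are a description, and nothing is read from tests of them.

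All animals were male Wistar rats. SNT animals had their L5 spinal nerve transected, and their L5 DRG was taken 7 days later, while the controls were L5 DRG of naive rats, which had no surgery. Each library held poly(A) RNA of the pooled ganglia of 4 rats, with 3 libraries per group, and each library was sequenced in 3 runs of about 17, 25 and 50 M reads. A pool of 4 rats averages its animals, so the spread between libraries is a spread between pools, and the 3 runs of a library repeat the sequencing only.

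A DRG holds the cell bodies of sensory neurons, which are wrapped by satellite glia, and the axons that leave it are ensheathed by Schwann cells. Cutting the spinal nerve severs the peripheral axons of these neurons. The ganglion is known to lose neurofilament transcripts and those of some neuropeptides. It is known to gain transcripts of other neuropeptides, of axon regrowth and of immune cells. In RNA sequencing the most abundant transcripts take a large part of all reads, so that a modest change in them moves more reads than a large change in a rare transcript.

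The members are known here by their Ensembl gene identifiers alone, and no symbol was paired with any of them. Only the 2 most abundant members with a lower SNT mean and the 2 most abundant with a higher one are given by identifier, and the others are given by their rank in naive mean among the 91 members. Values are normalised read counts per gene and are not divided by transcript length, so a rank is a rank in reads and not in transcripts per cell.

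At 50 M the libraries held 15000789 to 19031166 exonic reads. Counts of every member were above 0 in all 18 runs. The SNT libraries were not alike. SNT 1 lay between the naive mean and both other SNT libraries in 57.2% of 17930 tested genes, a set that leaves out genes seen in fewer than 3 libraries at 50 M. The neuronal marker genes that could be paired with an identifier, 7 of 16 listed, summed to 370003 to 422215 normalised counts in the naive libraries and to 258684, 136230 and 169369 in SNT 1, 2 and 3. The neurofilament gene Nefh weighs most in this sum. It made up 203041 of the naive mean of 397310 and 56085 of the SNT mean of 188094. The single markers did not all fall, with ratios of SNT to naive means from 0.258 to 1.13. In bulk tissue fewer cells of a type and less RNA per cell cannot be told apart.

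The 91 members took 13.0% of the exonic reads of naive libraries, and a slightly smaller share after SNT. Their share was 13.1%, 12.9% and 12.9% in naive 1, 2 and 3, and 12.5%, 11.8% and 12.2% in SNT 1, 2 and 3. All 3 SNT libraries lay below all 3 naive libraries. The means were 13.0% ± 0.128 (SD, n = 3) and 12.2% ± 0.334 (SD, n = 3). The 95% Wilson interval of naive 1 ran from 13.10% to 13.13%, so counting error was small beside the spread between libraries. The order of the groups was the same in the shallower runs, with means of 12.96% and 12.16% at 17 M and 12.95% and 12.17% at 25 M. The direction depended on the bounds of the rule. For the 59 genes with a ratio from 0.67 to 1.5 the share was 8.18% in naive and 8.41% in SNT libraries.

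**Figure D1:**
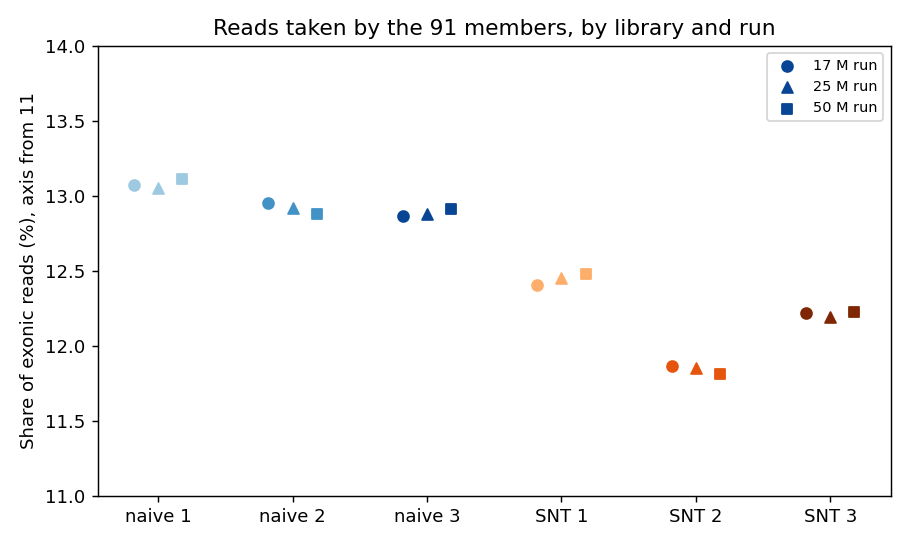
Share of exonic reads taken by the 91 members (vertical axis in percent, starting at 11) in each of the 6 libraries, with 1 point for each of the 17 M, 25 M and 50 M runs. The naive libraries sit near 13.0% and the SNT libraries between 11.8% and 12.5% at 50 M, and the runs of a library lie close together.

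The reads were concentrated in few members. Naive means ran from 10053 to 279417 normalised counts with a median of 15311. There were 9 members over 50000 and 64 under 20000. The 5 most abundant members took 4.35% ± 0.156 of naive reads and 3.63% ± 0.334 of SNT reads (SD, n = 3 each). The 10 most abundant took 5.89% ± 0.133 and 5.37% ± 0.181.

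The most abundant member, ENSRNOG00000017428, was also the gene with the highest naive mean of the whole table. It had 291806, 297787 and 248658 normalised counts in naive 1, 2 and 3 and 205666, 100493 and 134699 in SNT 1, 2 and 3. The groups did not overlap, with SNT 1 nearest to the naive libraries and SNT 2 farthest below them. On the log2(normalised count + 1) scale the difference was -0.99 ± 0.34 (SE). Its ratio of means of 0.526 lay close to the lower bound, and was 0.421 without SNT 1 and 0.498 without naive 3. It would have failed the rule in either case.

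The next member, ENSRNOG00000031766, moved much less. It had 164568, 142251 and 159730 normalised counts in the naive libraries and 130078, 122969 and 133159 in the SNT libraries. Every SNT value was below every naive value, and the SNT libraries were closer to each other than the naive libraries. The log2 difference was -0.27 ± 0.22 (SE), where the error is taken from a model that shares information on the spread across all genes. The SE was 0.10 in the same model without a trend in the variance prior and in DESeq2 on recovered reads.

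Among members with a higher SNT mean, the most abundant was ENSRNOG00000017209, of rank 7. Its naive mean was 62208 ± 5506 and its SNT mean 69448 ± 8023 (SD, n = 3 each), a log2 difference of 0.16 ± 0.18 (SE). The difference was smaller than the SD of the SNT libraries.

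ENSRNOG00000018454, of rank 8, had the largest rise in counts of all members, and that rise lay in 1 library. Its naive values were 57143, 63903 and 54565 normalised counts and its SNT values 60325, 136654 and 66507. SNT 1 fell inside the naive range, SNT 3 lay just above it and SNT 2 was far above both. The ratio of means was 1.5 with all libraries and 1.08 without SNT 2.

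Ranks 3, 4 and 6 stayed near their naive level, with ratios of 0.916, 0.939 and 0.925. Rank 5 had a ratio of 0.776 and no overlap of the groups, with a mean of 120606 ± 6060 in naive and 93560 ± 4571 in SNT libraries (SD, n = 3 each).

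Most members were lower after SNT. Of the 91, 67 had a ratio under 1 and 24 a ratio over 1, with a median of 0.791 and a range from 0.505 to 1.75. The median over all 17930 tested genes was 1.01. Ratios from 0.9 to 1.1 were found for 17 members, ratios under 0.67 for 27 and ratios over 1.5 for 5. The 69 genes that passed the same bounds but had a symbol were alike in these terms, with 55 under 1 and a median of 0.791. Within the members the ratio had no steady relation to the level. The median was 0.821 for the 44 members from 10000 to 15000, 0.742 for the 20 from 15000 to 20000, 0.785 for the 18 from 20000 to 50000 and 0.916 for the 9 above that.

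The values of the groups did not overlap in 64 members, of which 13 were higher in SNT and 51 lower. Over all tested genes 30.8% were higher and 31.3% lower without overlap. The limma test on log2(normalised count + 1) at a false discovery rate of 0.1 called 10 members higher and 45 lower, where 29.2% of all tested genes were called higher and 29.4% lower. The rule used this same contrast, so nothing is read from these counts. At 17 M 53 members and 8803 of 16820 tested genes were called, and at 25 M 57 members and 9630 of 17226 genes. The count was 67 at 50 M when SNT 1 was left out and 44 when SNT 3 was left out. Of all tested genes, 11346 of 17592 and 8416 of 17600 were then called.

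The direction depended in part on the scaling. When libraries were scaled to equal totals in place of the deposited size factors, the median log2 difference of all tested genes moved up by 0.15. Under that scaling 38 members were higher and 53 lower, and 14 members changed side. The limma calls among members were then 17 higher and 35 lower, and the part of all calls that was higher went from 49.8% to 62.5%. With trimmed mean (TMM) scaling 26 members were higher and 65 lower.

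The next question was how much of the lower SNT total lay in the members. The total of normalised counts was 18530791 ± 249955 in naive and 16561009 ± 303221 in SNT libraries (SD, n = 3 each), a difference of -1969782 or -10.6%. All SNT libraries lay below all naive libraries. The exact two-sided permutation test gave p = 0.1, which is the smallest value that 3 against 3 libraries allow. The difference was -10.4% in both the 17 M and the 25 M runs. It rests on the size factors. With TMM scaling it was -9.64%, and libraries scaled to equal totals have no difference by construction. The difference is therefore one of scaled counts and does not measure the RNA of a ganglion.

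The members accounted for 19.6% of that difference, while they held 13.0% of the naive total. Most of this excess came from the most abundant member, which held 1.51% of the naive total and 6.72% of the difference. Without it, the other members held 11.5% of the naive total and 12.9% of the difference. The summed counts of all members were 2448581, 2405545 and 2356086 in naive 1, 2 and 3, and 2107251, 1924995 and 2017429 in SNT 1, 2 and 3. The groups were well apart, with SNT 2 the lowest. The sum fell by 16.1% of its naive level, from 2403404 ± 46285 to 2016558 ± 91132 (SD, n = 3 each). Over the 9 pairs of 1 naive and 1 SNT library the members' part of the difference in totals ranged from 16.7% to 22.1%. It ranged from 18.6% to 20.4% when single libraries were left out.

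This part is a net figure. The 67 members with a ratio under 1 fell by 515023 normalised counts in sum, which was 26.1% of the difference in totals. The 24 members with a ratio over 1 gained 128177, which enters with the opposite sign as -6.51%. The sum over the rising members was even among naive libraries, at 443625, 446819 and 437089, and was 509996, 644960 and 557109 in SNT 1, 2 and 3. SNT 2 was thus the lowest library for the falling members and the highest for the rising ones.

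A few members carried a large part of the loss. The most abundant member alone fell by 132464 counts, which was 6.72% of the difference in totals. The 5 largest falls made up 43.4% of all falls among members, and 9 members made up 50% of them. The ranks of the 5 were 1, 5, 2, 9 and 12. Without the most abundant member the other 90 fell by 11.98% of their naive sum and held 12.9% of the difference.

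The members' part also depended on the bounds. It was 6.25% for a ratio from 0.67 to 1.5, and 34.9% when the 69 genes with a symbol were kept. It was 31.03% for the 311 genes with a naive mean of at least 5000 and 13.7% for the 27 with at least 20000.

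The rest of the difference lay in other classes. The 46 genes over 10000 with a ratio under 0.5 held 54.6% of it, and the 69 abundant genes with a symbol 15.3%. For the 46, the share of reads went from 8.53% ± 0.429 to 3.03% ± 1.47 (SD, n = 3 each). The 3611 genes from 1000 to 10000 held 50.0%. Genes under 1000 and the 5 abundant genes with a ratio over 2 were higher in SNT libraries and entered as -28.0% and -11.5%.

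**Figure D2:**
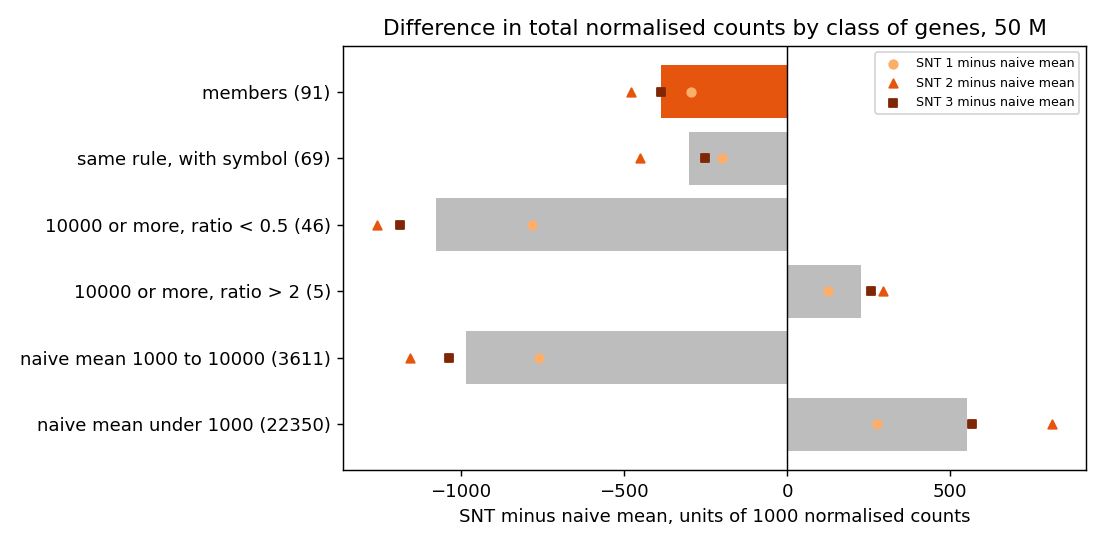
Difference in normalised counts at 50 M, SNT mean minus naive mean in units of 1000 (horizontal axis), for the 91 members and 5 classes of other genes. Bars give the difference of means and points the 3 SNT libraries, each minus the naive mean. The members lie left of 0 in all 3 SNT libraries, and SNT 1 has the smallest difference in each class.

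Replicate libraries of naive rats were close for most members, and SNT libraries were wider apart. The coefficient of variation (CV, the SD of 3 libraries over their mean) had a median of 5.94% in naive libraries, with a range from 0.534% to 30.4%. In SNT libraries the median was 13.2%, with a range from 0.174% to 84.1%. The CV was under 5% for 38 members in naive and 15 in SNT libraries, and over 20% for 4 and 22. These limits were chosen after the values were seen.

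Counting error was small beside this spread. It alone would give a median CV of 0.802% in naive and 0.910% in SNT libraries. At 17 M the median CVs were 5.20% and 13.3%, and at 25 M 5.82% and 12.9%.

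The SNT CV was above the naive CV in 70 of 91 members, or 76.9%. The same held for 81.4% of the 3822 genes with a naive mean of at least 1000. The medians of the genes with a symbol inside the same bounds were 6.10% and 15.1%. The 46 abundant genes with a ratio under 0.5 had medians of 7.05% and 37.9%. Among members, the SNT median was 15.01% for those with a ratio under 1 and 12.9% for those with a ratio over 1. The SNT median was 9.26% when SNT 1 was left out and 17.4% when SNT 3 was left out. The naive median ranged from 3.64% to 7.68% when single naive libraries were left out.

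The summed level of the members varied less than single members did. Its CV was 1.93% in naive and 4.52% in SNT libraries.

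**Figure D3:**
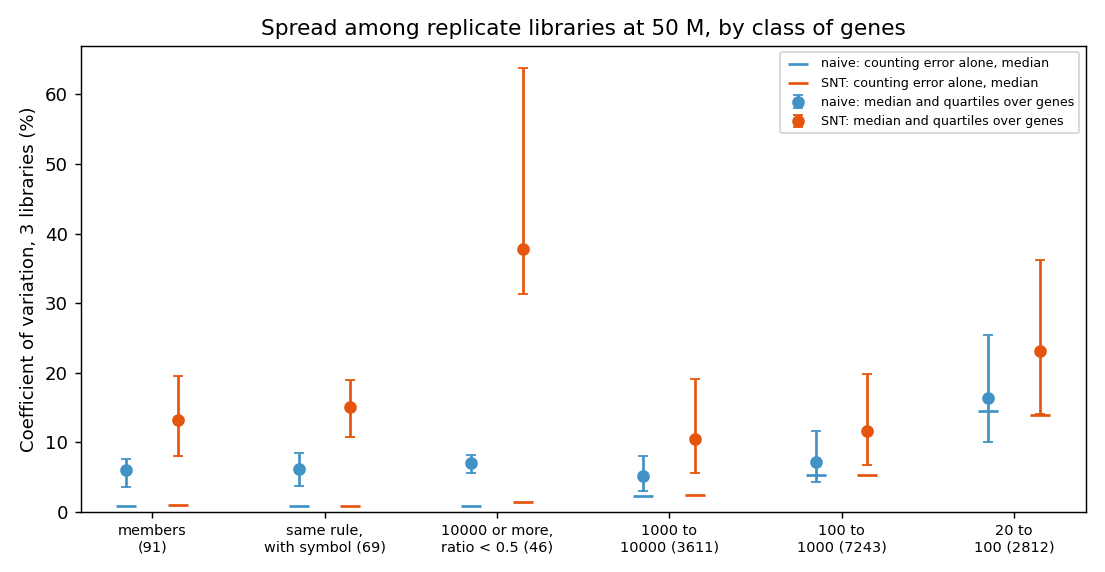
Coefficient of variation among 3 libraries at 50 M (vertical axis in percent) for the members and for other classes of genes, with the number of genes in brackets. Points and bars give the median and quartiles over genes, blue for naive and orange for SNT, and short dashes give the median from counting error alone. The member medians of 5.94% and 13.2% lie far above their counting error of 0.802% and 0.910%, whereas the naive median of genes from 20 to 100 counts, 16.3%, lies near its counting error of 14.5%.

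The widest member was that of rank 36. It had 17816, 13251 and 20784 normalised counts in naive 1, 2 and 3, and 5597, 11483 and 31646 in SNT 1, 2 and 3. The SNT values enclosed the whole naive range, so its ratio of 0.940 stands for 1 library well below and 1 well above naive. Without SNT 3 the ratio was 0.494 and without SNT 1 it was 1.25. The SNT CV of 84.1% at 50 M went with 85.9% in the 17 M runs and 85.0% in those of 25 M, so all 3 runs of these libraries gave the same spread.

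The next widest in SNT libraries were ranks 8, 1 and 42, with CVs of 48.3%, 36.5% and 35.1%. Rank 42 was like rank 8, with 17384, 31387 and 18282 normalised counts in SNT 1, 2 and 3 against 14731 to 16537 in the naive libraries. All SNT values were above the naive ones, and SNT 2 stood far above the rest. Its ratio was 1.44, and 1.15 without SNT 2. In the 8 members that followed in order of SNT CV, with CVs from 25.0% to 29.9%, SNT 1 was the highest SNT library, SNT 2 the lowest, and the ratio 0.516 to 0.631.

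Many members followed the libraries in the order of the neuronal marker sum. The neuronal marker sum was lowest in naive 3 and highest in naive 2, and in the SNT libraries it was lowest in SNT 2 and highest in SNT 1. The total of normalised counts had this same order, at 18669803, 18680339 and 18242232 in naive 1, 2 and 3. It was 16890504, 16293706 and 16498817 in SNT 1, 2 and 3. An order shared with the marker sum is thus also shared with the total. The naive order was found in 53 members, or 58.2%, against 27.7% of all tested genes and 46.7% of the genes from 1000 to 10000. The SNT order was found in 55 members, or 60.4%, against 26.9% and 47.5%. Both orders together were found in 42 members, or 46.2%, against 13.4% and 32.8%. The 69 genes with a symbol inside the same bounds had the naive order in 62.3%, the SNT order in 62.3% and both in 50.7%, so the order was not particular to the members. Of the 42 members with both orders 39 had a ratio under 1, and their median ratio was 0.656. The comparison of orders was chosen after the values were seen and is a description. The part of the neuronal markers in it, and that of the library totals, was not tested.

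The 7 paired neuronal markers were Snap25, Nefh, Prph, Uchl1, Calca, Scn9a and Stmn2, of a synaptic vesicle fusion protein, neuronal intermediate filaments, a neuronal ubiquitin hydrolase, a neuropeptide, a sodium channel and a growth cone protein. None was at 0 in any library. Their ratios ran from 0.258 for Snap25 to 1.13 for Stmn2. The markers were paired through the same list of symbols that removed genes from the members, so no marker can be a member.

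Members with a wide spread among naive libraries had another order. The naive CV was over 15% in 7 members, of ranks 25, 29, 36, 55, 75, 77 and 89, a limit set after the values were seen. In all 7 naive 2 was lowest and naive 3 highest. Rank 75 had 12649, 7200 and 13319 normalised counts in naive 1, 2 and 3, rank 89 had 10648, 7095 and 12761, and rank 29 had 20489, 13477 and 23492. Naive 2 was the library that stood apart in each.

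The Schwann and satellite glia markers had the same naive order. The 3 of 10 that were used here, Mbp and Pmp22 of myelin and the glial transcription factor Sox10, summed to 181470, 118536 and 210787 normalised counts in naive 1, 2 and 3. In SNT 1, 2 and 3 they summed to 134949, 123351 and 159375, and none was at 0. The ratio of SNT to naive means was 0.800 for Mbp and 0.799 for Pmp22, which make up most of the sum, and 1.89 for Sox10. The glial order was found in 16 members, or 17.6%, against 20.5% of all tested genes. Of the 12 genes listed for macrophages only Ptprc could be paired, with 154 to 430 normalised counts in naive and 666 to 1860 in SNT libraries. Ptprc is a gene of leukocytes in general, so these values do not stand for macrophages alone. The lists of T or NK cell, skeletal muscle and red blood cell markers had 0 paired genes and were not analysed here. The part of glia and immune cells in the members' spread was not tested.

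In the SNT libraries the 7 members did not keep together. Their sum was 0.891, 1.12 and 1.30 times the naive mean in SNT 1, 2 and 3, where the glial sum was 0.793, 0.724 and 0.936 times its own naive mean. Rank 25 was 1.46 to 1.87 times its naive mean in all 3 SNT libraries, while rank 89 was 0.654 to 0.835 times.

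**Figure D4:**
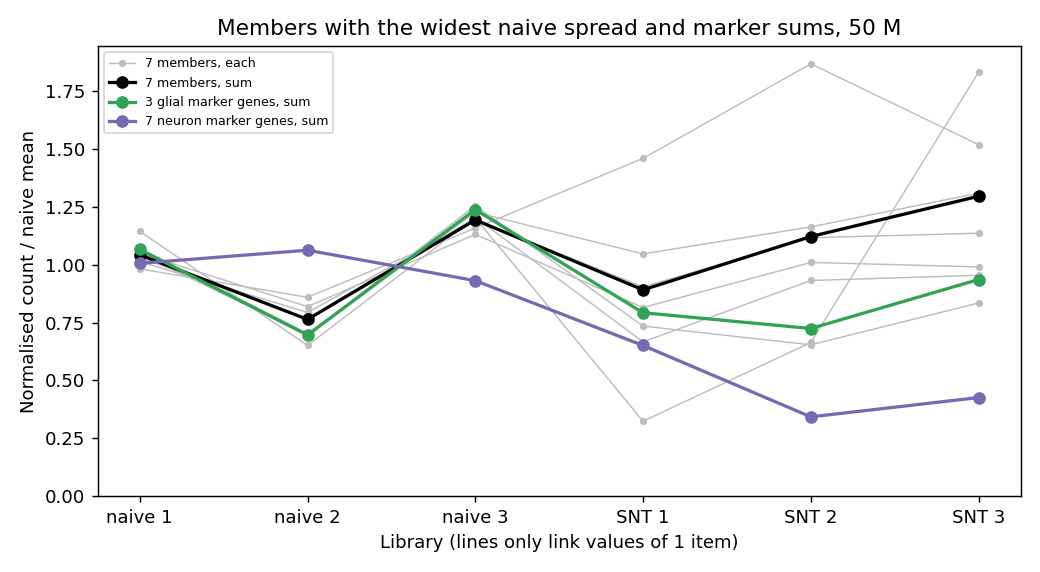
Normalised count over the naive mean (vertical axis, from 0) in the 6 libraries at 50 M, for the 7 members with a naive CV over 15% (grey), their sum (black), the sum of 3 glial markers (green) and the sum of 7 neuronal markers (purple). Lines only link the values of 1 item. The 7 members and the glial sum are lowest in naive 2 and highest in naive 3 among the naive libraries, and part from each other in the SNT libraries.

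Repeat runs of a library gave nearly the same share for each member. The highest of the 3 runs exceeded the lowest by a median of 1.84% to 2.89% per library, and by at most 10.95% for any member. The variance between runs over that from counting error had a median of 0.878 to 1.68 over members in the 6 libraries, with a mean of 1.32. Counting error alone would give a median of 0.693 for 3 runs, so members varied more between runs than that. For the 3611 genes with a naive mean from 1000 to 10000 the medians were 0.697 to 0.818, closer to counting error. For pairs of runs the mean over members was 0.896 between 50 M and 25 M and 0.990 between 50 M and 17 M. It was 1.03 between 25 M and 17 M, where counting error alone would give 0.455 for each pair. Shifts in 1 direction in all 6 libraries were found for 2 members (2.20%) between 17 M and 50 M. They were found for 6 (6.59%) between 25 M and 50 M and for 2 (2.20%) between 17 M and 25 M. Of 3610 genes with a naive mean from 1000 to 10000, 2.96%, 3.88% and 4.21% had such shifts in the same order.

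The ratios changed little with depth. Compared with 50 M they moved by a median of 0.01 on the log2 scale, and by at most 0.08 at 17 M and 0.05 at 25 M. The same 3 libraries per group stand behind all depths, so this measures the sequencing and not the animals. At each of the shallower depths 90 members stayed on their side of 1, and 91 at 17 M and 90 at 25 M stayed inside the bounds of 0.5 and 2.

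Some members lay close to the bounds. The lowest naive mean inside was 10053, and the highest outside, of a gene within the ratio bounds and without a symbol, was 9929. The lowest ratio inside was 0.505 and the next abundant gene below without a symbol had 0.498. At the upper end the highest ratio inside was 1.75 and the next abundant gene without a symbol had 4.24, so that no member was near 2. Leaving out SNT 1 put 10 members outside the bounds, leaving out naive 3 put 3 outside and leaving out SNT 3 put 1 outside, while leaving out naive 1, naive 2 or SNT 2 put 0 outside.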

How the data were processed

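RNA was sequenced from L5 DRG of 3 SNT and 3 naive pools of 4 rats, in 3 runs per library. As the study's methods state, reads of 34 bases were aligned with Bowtie to the rat genome Rn5 with up to 1 mismatch, reads that fitted more than 1 place were removed, and exonic reads were counted per Ensembl gene without strand information. Genes with near-identical copies are therefore undercounted, and overlapping genes cannot be separated. The versions of Bowtie and DESeq are not given in the sources used here. The deposited values, 1 table per depth, are a signal that the authors made by dividing read counts by DESeq size factors. The reads were recovered by dividing each value by the step of its column (whole within 0.001 for 100% of values) and served for shares, counting error and alternative count tests.

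Calls came from limma 3.58.1 (R 4.3.3) on log2(normalised count + 1), with a trended variance prior, for genes with reads in at least 3 of 6 libraries, two-sided, at a Benjamini-Hochberg false discovery rate of 0.1 over all genes tested at a depth. edgeR 4.0.16 and DESeq2 1.42.0 on recovered reads were alternatives. The scripts were tested on simulated data. Intervals cover counting error only, and reads that carry no molecular identifier may repeat 1 molecule. Groups and replicate numbers come from the labels. The numbers share no animals, since SNT and naive rats were different animals, so no pairing was used. Correlations of deviations from the group means were 0.03, -0.43 and 0.28 for same-numbered libraries at 50 M. For differently numbered libraries they ran from -0.48 to 0.47. Such correlations cannot show whether animals are shared. The members and marker lists were chosen with earlier results of these data known. Members are named by identifier only for the 2 with the highest naive mean on each side of a ratio of 1, and otherwise by rank. Symbols of marker genes were paired with identifiers through the study's supplementary list, which holds 1994 identifiers found in the tables in the part used here, so the set of members could be smaller with a longer part. Some of the glial markers are not reported here and are in no sum. Other alternatives were pseudocounts, filters, scalings, bounds of the rule and leaving out each library.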

Additional observations from a re-analysis of the deposited data

How the results depend on the processing

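The members' share of reads was 21.0% in naive and 19.8% in SNT libraries for a naive mean of at least 5000, 8.33% and 7.68% for at least 20000, 8.18% and 8.41% for a ratio from 0.67 to 1.5, and 23.0% and 21.6% with genes with a symbol kept. Their part of the difference in totals was 31.03%, 13.7%, 6.25% and 34.9% in the same order. The changed set of genes makes these shifts by construction. The variance between runs over counting variance was 0.896 for 50 M against 25 M and 0.990 for 50 M against 17 M, where counting error alone gives 0.455 for 2 runs and 0.693 for 3. With the replicate number as a block, 47 members and 9459 of all genes were called at 50 M, against 55 and 10497 without it. The block gave 45 members and 7867 genes at 17 M, and 45 members and 8601 genes at 25 M. The numbers mark no shared animals, and not every same-numbered pair of libraries deviated together. Leaving out 1 library gave 44 to 67 called members and 8416 to 11346 called genes at 50 M. Non-overlapping groups were then found in 65 to 74 members, a count added after the data were seen. Leaving out a library can only keep or raise that count, and it was not made over all genes, so nothing is read from it. The call of ENSRNOG00000017428 was lost with the block and without naive 1, naive 2, SNT 2 or SNT 3. ENSRNOG00000031766 gained a call without a trend in the variance prior and in DESeq2, as did ENSRNOG00000018454 without SNT 1. The rule used the same contrast, so these calls describe the settings and nothing is read from them about the genes. With 3 libraries per group no exact test could pass 0.05. Among the results recomputed, directions changed for the share of reads at a ratio from 0.67 to 1.5, for 14 members under equal totals, 2 under TMM scaling, 1 at each shallower depth and 0 to 6 when 1 library was left out, rank 36 among them without naive 3, SNT 1 or SNT 2.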
